A study of Drosophila melanogaster with 4 samples.

Results

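The left arm of the second chromosome, 2L, of Drosophila melanogaster carried 1108 HP1c regions in a chromatin immunoprecipitation sequencing (ChIP-seq) map of adult head nuclei. A region is a stretch that the authors listed as significantly enriched over input DNA. The members were all such regions of the authors' combined list with a midpoint at or below position 21011544 of 2L (FlyBase release 5), which leaves out the 2 Mb next to the centromere. They were 1108 of the 7116 regions of that list. A further 73 regions of 2L lay in the proximal stretch. The same stretch of 2L held 942 of the 6008 regions of ChIP replicate 1 and 909 of the 5764 regions of replicate 2.

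HP1c belongs to the heterochromatin protein 1 family, whose members have a chromodomain, which can bind methylated histone tails, and a chromoshadow domain, which pairs HP1 proteins with each other and with partner proteins. Unlike HP1a, the member best known from pericentric heterochromatin, HP1c is found mostly along the gene-rich euchromatic arms, where it occurs in a complex with the zinc-finger proteins WOC and ROW. Arm 2L without its proximal end is largely such euchromatin.

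The study used wild-type flies of the Oregon-R strain (Oregon-R-modENCODE), at a stage labelled as mixed adults, with no treatment. Heads were collected from cage-raised adults with sieves, so the map averages over all cell types of the head, and the labels do not separate the sexes. The 4 samples were 2 libraries made with the HP1c antibody MO 462 and 2 input libraries of the same material, and each input served as the control of the ChIP library of its number. Nothing in the labels ties the replicates to different batches of flies, so each SD given with n = 2 is a spread between libraries that may be technical. The lists carry no read counts, and sequencing depth is unknown. With 2 libraries, an exact paired permutation test across libraries cannot give a two-sided p below 0.5, so differences below are set against the spread between libraries and were not tested.

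HP1c regions were of similar number and width on 2L in both libraries. Replicate 1 held 44.8 regions per Mb and replicate 2 held 43.3, a mean of 44.0 ± 1.11 (SD, n = 2). They covered 11.8% and 11.5% of the 21.01 Mb kept, or 2.48 Mb and 2.42 Mb. Median widths were 2254 and 2273 bp, in this order. The central 50% of regions lay between 1945 and 2826 bp in replicate 1 and between 2001 and 2813 bp in replicate 2. The narrowest region was 1301 bp in both libraries, and the widest was 13152 bp and 13089 bp. The combined list was longer, with 52.7 regions per Mb over 13.7% of the stretch, and reached down to 1001 bp.

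The libraries marked mostly the same places on 2L. Overlap means at least 1 bp in common. Of the 942 regions of replicate 1, 818 overlapped a region of replicate 2, which is 86.8% (exact 95% interval 84.5 to 88.9, covering the number of regions only), against 86.5% in the whole list. Of the 909 regions of replicate 2, 818 overlapped replicate 1, which is 90.0% (87.9 to 91.9), against 90.1% in the whole list. The shares on 2L therefore lay at the level of the whole genome. The regions of both libraries had 2.13 Mb in common, or 77.2% of the sequence in either. In 775 cases a region of one library met exactly 1 region of the other. In these pairs the starts lay a median of 63 bp apart and the ends 61 bp apart, and both edges fell within 200 bp in 512 pairs (66.1%).

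The authors' score, a signed number per region of unstated scale, ranked the 2L regions alike in both libraries. Its median was 0.903 in replicate 1 and 1.07 in replicate 2. Over best-overlap pairs, Spearman's rho of the scores was 0.884 ± 0.00843 (SD of the values obtained from each replicate's side). These pairs share an arm and 2 libraries and are not independent, so no p is given. Replicate 2 had the higher score in 497 of the 775 one-to-one pairs (64.1%). On X, 2R, 3L and 3R, each without its proximal 2 Mb, the median score was also higher in replicate 2. These medians ran from 0.986 to 1.20 there, against 0.896 to 1.06 in replicate 1. A higher score in replicate 2 was therefore not particular to 2L. Of the 50 highest-scoring 2L regions of replicate 1, all overlapped replicate 2, and 36 overlapped one of its own 50 highest.

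**Figure D1:**
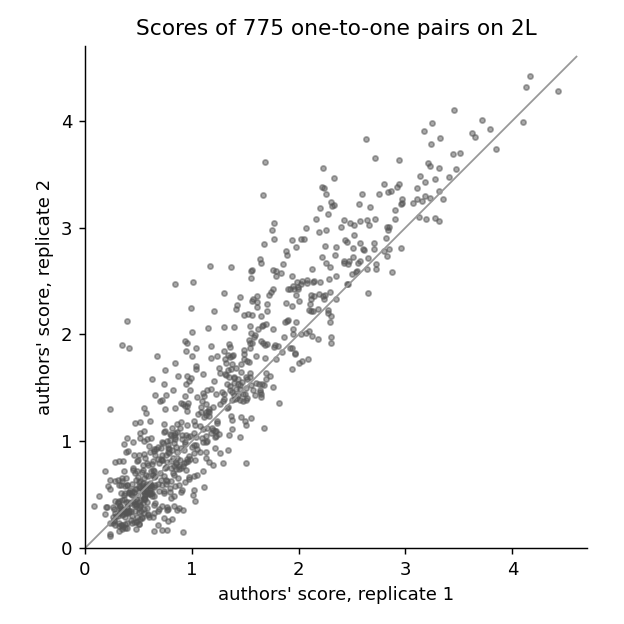
Authors' score in replicate 1 (horizontal axis) and replicate 2 (vertical axis), both without a stated unit, for the 775 one-to-one pairs of regions on 2L; each point is a pair and the line marks equal scores. Most points follow the line, with 497 above it, and a scatter of points lies far above it at low replicate 1 scores.

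The combined list sorted into 4 classes by the replicates. Of its 1108 regions, 805 (72.7%) overlapped a region in both replicates, against 71.3% in the whole list. A further 115 overlapped replicate 1 alone and 83 replicate 2 alone, for which no whole-list share was worked out. The remaining 105 (9.48%) overlapped neither, against 10.8% in the whole list. The combined list comes from the same libraries, so these shares describe its making.

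Regions found in both libraries were wide and high in score in the combined list, and the others were narrow and low. These scores and widths come from the same libraries whose calls define the classes. The differences may therefore follow from the making of the lists, and a link apart from it was not tested. The 805 had a median score of 1.13 and a median width of 2488 bp. The median score was 0.244 for regions of replicate 1 alone, 0.255 for those of replicate 2 alone and 0.299 for those of neither. Median widths of these classes were 1696, 1824 and 1293 bp. Of the 105 in neither, 54 were narrower than any region of either replicate. When members were ordered by combined score into 4 groups of 277, the number found in both went from 63 in the lowest group to 191, 274 and 277 in the groups above. Of the 368 regions under 2 kb, 88 (23.9%) were found in both, against 657 of the 680 from 2 to 5 kb (96.6%). All 60 regions of 5 kb or more were found in both. The shares by score and width were not worked out for the whole list, so whether they are particular to 2L is unknown.

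Score did not rise evenly with width. Over all 2L regions the rank correlation of score and width was 0.779 in replicate 1 and 0.787 in replicate 2, but it differed between bands of width. From 1800 to 2500 bp, rho was 0.860 over 434 regions of replicate 1 and 0.891 over 478 of replicate 2. Below 1800 bp it was negative, at -0.259 over 161 regions and -0.270 over 110. From 2500 bp upwards it was 0.0745 over 347 regions and 0.00233 over 321. In the combined list the bands gave -0.552, 0.889 and 0.0601, from narrow to wide. These cut points were chosen after the values were plotted. The other large arms (X, 2R, 3L and 3R) gave -0.0917, 0.824 and -0.0185 in replicate 1 and -0.217, 0.884 and -0.0743 in replicate 2, so the steep middle band was also present there.

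**Figure D2:**
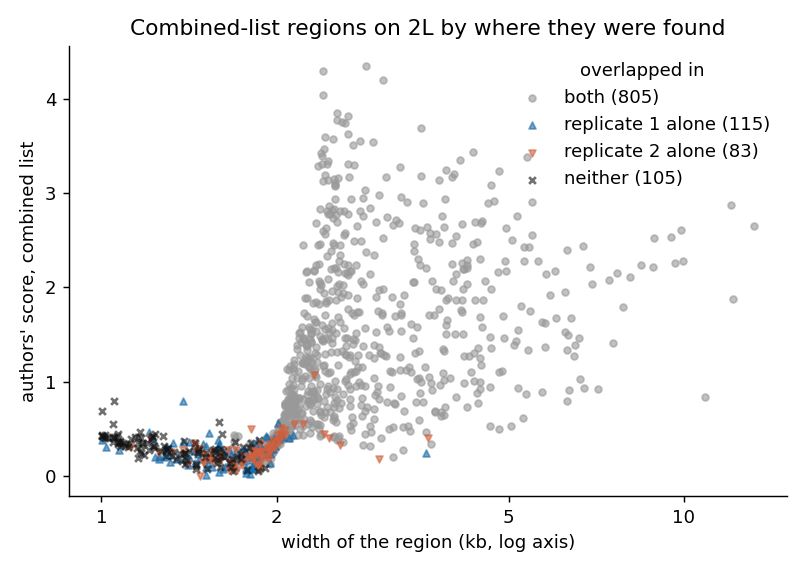
Width of each of the 1108 combined-list regions on 2L in kb (horizontal log axis) against the authors' score (vertical axis), with the marker showing whether it overlapped a region in both replicates, in 1 alone or in neither. Scores fall slightly towards 1800 bp, climb steeply up to about 2500 bp and spread widely above; most regions not found in both lie below 2 kb.

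The strongest regions were somewhat wider than the median member, 2248 bp, and well short of the widest. The 10 highest-scoring regions found in both libraries were 2398 to 3539 bp wide, and each overlapped a single region in either library. They were spread over the arm. The highest lay from 7798706 to 7801547, with a score of 4.34 in the combined list, 4.42 in replicate 1 and 4.28 in replicate 2. The next, from 8996317 to 8998714, scored 4.29, 4.17 and 4.42 in these lists. That from 18687704 to 18690749 scored 4.20, 4.12 and 4.32. Between them, these regions ranked 4 to 13 among all regions of replicate 1 or 2, so 2L held some of the highest scores of the whole map.

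Another strong region, from 11105635 to 11108035, scored 4.10 in replicate 1 and 3.99 in replicate 2. The region from 13377432 to 13379971 scored 3.71 and 4.00, and ranked 36 in each whole list. The region from 4980248 to 4982895 scored 3.79 and 3.92. The region from 413635 to 416175, the one nearest the telomere among the 10, scored 3.85 and 3.74. The region from 6683283 to 6685871 scored 3.45 and 4.10 and had the widest gap between libraries of the 10 in score. The last of them, from 20348971 to 20351593 and from 3300860 to 3304398, scored 3.65 and 3.62 in replicate 1 and 3.85 and 3.88 in replicate 2. Scores of the 10 ran from 3.45 to 4.42 in replicate 1 and from 3.74 to 4.42 in replicate 2, and these ranges overlap. Among the 50 highest-scoring members, the median width was 2652 bp and 1 reached 5 kb.

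The widest regions were of middling to high score. The widest ran from 2191320 to 2204504, over 13185 bp. It was a single region in both libraries, with a score of 2.45 in replicate 1 and 2.86 in replicate 2. The next, from 4996464 to 5008597, scored 1.90 in replicate 1 and lay over 2 regions of replicate 2, the larger of which scored 1.86. The one after it, from 12001120 to 12013180, held 2 regions in each library. Its best-overlapping regions scored 2.72 and 3.08. Over all members of 5 kb or more, the combined score ran from 0.529 to 3.38, with a median of 1.84, against 0.731 over all members.

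Regions were seldom split differently by the lists. Of the 1108 members, 776 matched exactly 1 region in each replicate, and 30 held more than 1 region in at least 1 replicate. The member with the most lay from 20078144 to 20088011, over 9868 bp, and held 3 regions of replicate 1 and 1 of replicate 2. The member from 16726831 to 16733579 held 2 in each.

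Regions seen in a single library had low scores, with a few exceptions. They are named here in order of the combined score, which is not their order within the library. The first in replicate 2 alone, from 10291413 to 10293727, scored 1.84 there and stood at percentile 70.5 of that list. The next, from 19048019 to 19050155 and from 4223313 to 4225532, stood at percentiles 42.4 and 49.4. In replicate 1 alone the first, from 6881914 to 6883291, scored 1.13 (percentile 57.6), and the next, from 10478985 to 10480995 and from 15238572 to 15239779, stood at percentiles 41.3 and 21.5. The strongest members found in neither replicate lay from 8730696 to 8731745 (combined score 0.796), from 15692655 to 15693656 (0.685) and from 15657271 to 15658859 (0.575). They were 1050, 1002 and 1589 bp wide.

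Members found in both libraries mostly had similar ranks in them. The percentile of score within the whole list of each replicate differed by a median of 7.08 points, and by over 25 points in 65 of the 805 members (8.07%). This share was not worked out for the whole list, so whether it is particular to 2L is unknown. Of these 65, 31 stood higher in replicate 2 and 34 in replicate 1. In 57 of them the compared regions of the replicates had at least 50% of each in common, with 28 higher in replicate 2 and 29 in replicate 1. In 1 of them they did not touch each other. The largest differences favoured replicate 2. The region from 18440139 to 18442196 scored 0.279 in replicate 1 (percentile 3.10) and 1.80 in replicate 2 (percentile 69.5), but the replicate 2 region ran on to 18445289 and was 5097 bp wide, against 1954 bp in replicate 1, so the scores cover different lengths. That from 16702412 to 16704895 scored 0.390 and 2.13, and that from 11090266 to 11092480 scored 0.348 and 1.90. In the other direction, the region from 9828058 to 9830110 fell from percentile 48.5 in replicate 1 to 0.460 in replicate 2. The region from 7533980 to 7536131 fell by 40.1 points between the same libraries. The member from 4418840 to 4420808 also met the rule, but it lay across different places, since the replicate 1 region ended at 4418862 and that of replicate 2 began at 4419015.

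In 2 stretches of the arm, these discordant members lay mostly in 1 direction. From 10000001 to 12000000, 9 of 85 members stood over 25 points higher in replicate 2 and 1 in replicate 1. From 1000001 to 5000000, none of 155 stood higher in replicate 2 and 12 stood higher in replicate 1. Where the compared regions had at least 50% of each in common, these numbers were 9 and 1, and 0 and 10. These stretches were picked after the values were seen, and no test was made. Elsewhere the numbers per Mb were small, and some parts held both directions while others held 1 direction or none. From 6000001 to 7000000, 1 member stood higher in replicate 2 and 4 in replicate 1. From 16000001 to 17000000, these numbers were 4 and 1. They were 2 and 0 from 15000001 to 16000000, and 0 and 2 from 17000001 to 18000000.

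HP1c regions were unevenly spread along 2L. In 21 bins of 1 Mb from the telomere end, replicate 1 held 19 to 62 regions per bin (mean 44.9, SD over bins 12.6) and replicate 2 held 19 to 67 (mean 43.3, SD over bins 12.2). The densest bin, from 10000001 to 11000000, held 62 and 67 regions, and 17.1% and 19.6% of it was covered. Next came the bin from 8000001 to 9000000, with 62 and 58, and that from 19000001 to 20000000, with 58 and 59.

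The sparsest bins lay in the proximal part of the stretch. The bin from 15000001 to 16000000 held 19 regions in each library and was covered to 5.04% and 5.18%. Its distal neighbour, from 14000001 to 15000000, held 22 and 21, and the bin from 17000001 to 18000000 held 23 in each. Between these sparse bins, the bin from 16000001 to 17000000 held 45 and 51. The libraries followed the same course, with a median difference of 2 regions per bin and at most 8, in the first bin (56 and 48) and in that from 6000001 to 7000000 (58 and 50). Over the 21 bins, which lie side by side on 1 arm, the counts of the libraries had a Pearson correlation of 0.955 and a rank correlation of 0.936.

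**Figure D3:**
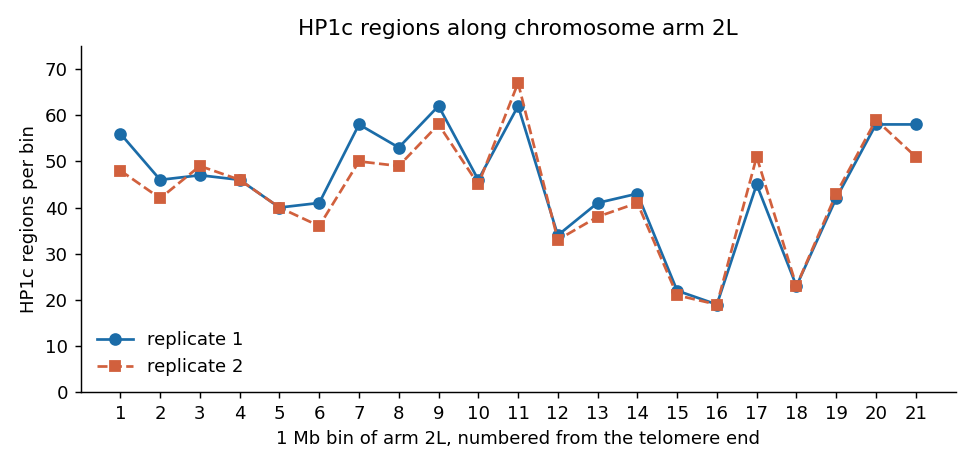
Number of HP1c regions (vertical axis) in each of 21 bins of 1 Mb on 2L (horizontal axis, numbered from the telomere end), for replicate 1 (circles) and replicate 2 (squares). Both lines peak in bin 11, at 62 and 67 regions, and dip to 19 in bin 16, with bins 15 and 18 nearly as low.

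Number and score were weakly related over the bins. Spearman's rho between the number of regions in a bin and their median score was 0.216 in replicate 1 and 0.289 in replicate 2, over the same 21 bins. In the sparsest bin the median score was 1.16 and 1.28, above the arm's medians of 0.903 and 1.07. The other sparse bins lay below these medians, with 0.605 and 1.02 from 14000001 to 15000000 and 0.661 and 0.873 from 17000001 to 18000000. In successive stretches of 7 Mb, replicate 1 held 47.7, 48.7 and 38.1 regions per Mb from the telomere inwards. Replicate 2 held 44.4, 47.3 and 38.1. The most proximal of these stretches, from 14000001 to 21000000, was the lowest in both libraries. The fall was not steady, since its bins from 19000001 to 20000000 and from 20000001 to 21000000 ranked 3 and 4 of the 21 by mean number. The share of members found in both libraries ran from 55.2% in the sparsest bin to 86.5% in the bin from 2000001 to 3000000.

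Some long stretches without any region recurred at the same positions in both libraries, and others did not. The longest of the combined list ran from 14690456 to 14994424, over 303969 bp, and no region of either replicate lay within it. The empty stretch measured 304195 bp in replicate 1, and in replicate 2 it measured 303821 bp. The next, from 4466209 to 4706009 (239801 bp), was also empty in both. Another, from 17777046 to 17962268, spanned 185223 bp. Replicate 1 had its longest empty stretch there, from 17635382 to 17962313 (326932 bp). Inside it, however, lay 1 region of replicate 2 and 4 of the combined list. The longest of replicate 2, from 15914331 to 16223272 (308942 bp), held 1 region of replicate 1 and 3 of the combined list. The third longest of replicate 2, from 17106783 to 17378001 (271219 bp), held 2 regions of replicate 1 and 2 of the combined list. Gaps of over 100 kb numbered 31 in replicate 1 and 32 in replicate 2.

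Elsewhere regions stood close together. The median gap measured 7727 and 8050 bp in replicates 1 and 2, a mean of 7889 ± 229 bp (SD, n = 2). A neighbour within 5 kb was found for 59.2% and 58.4% of regions. Gaps under 1 kb numbered 104 and 98. In replicate 1, 325 regions (34.5%) stood in runs, in which each gap is under 2 kb, and in replicate 2, 304 (33.4%). Runs of 4 or more regions numbered 12 and 8.

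The longest runs differed between the lists in part. That of the combined list ran from 16671381 to 16694850, with 6 regions over 23470 bp, where replicate 1 had 5 regions and replicate 2 had 6, but gaps of up to 2419 and 2534 bp broke the run in each library. The next ran from 11987057 to 12013180 (26124 bp), with 5 regions in the combined list. In replicate 2 it was an unbroken run of 6, the longest of that library, and in replicate 1 a gap of 2659 bp broke its 5 regions. The one from 6955335 to 6972920 (17586 bp) held an unbroken run in every list, of 5 regions in the combined list and replicate 1 and 4 in replicate 2. By contrast, the run of 4 regions of replicate 2 from 16267505 to 16289246 met 2 regions of replicate 1, which lay 5099 bp apart. Scores within a run varied widely, from 0.300 to 2.87 in the second of these and from 0.385 to 3.35 in the third. Over all neighbouring regions of the arm, the rank correlation of their scores was 0.0838 in replicate 1 and 0.0874 in replicate 2. For neighbours under 1 kb apart it was 0.193 and 0.253.

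Regions with a close neighbour had higher scores than those standing alone, in both libraries. In replicate 1 the median score was 1.03 for the 558 regions with a neighbour within 5 kb, 0.844 for the 286 with the nearest at 5 to 20 kb, and 0.624 for the 98 with none within 20 kb. In replicate 2 these medians were 1.39 (531 regions), 0.923 (268) and 0.541 (110). The range of scores overlapped widely between the classes. Width moved with the distance, with medians of 2316, 2224 and 2025 bp in replicate 1 and 2364, 2230 and 1981 bp in replicate 2. Among regions of 2 to 3 kb, those with a neighbour within 5 kb scored higher than those with none within 20 kb. The difference was smaller, with 1.18 against 1.01 in replicate 1 and 1.44 against 1.16 in replicate 2. Score rose steeply with width up to 2500 bp, inside this band, so width was not held fixed. Widths of the compared groups within the band were not worked out, and a difference apart from width was not tested. In the combined list, 538 of the 699 members with a neighbour within 5 kb (77.0%) were found in both libraries, against 60 of the 95 with none within 20 kb (63.2%). These shares by distance were not worked out for the whole list.

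**Figure D4:**
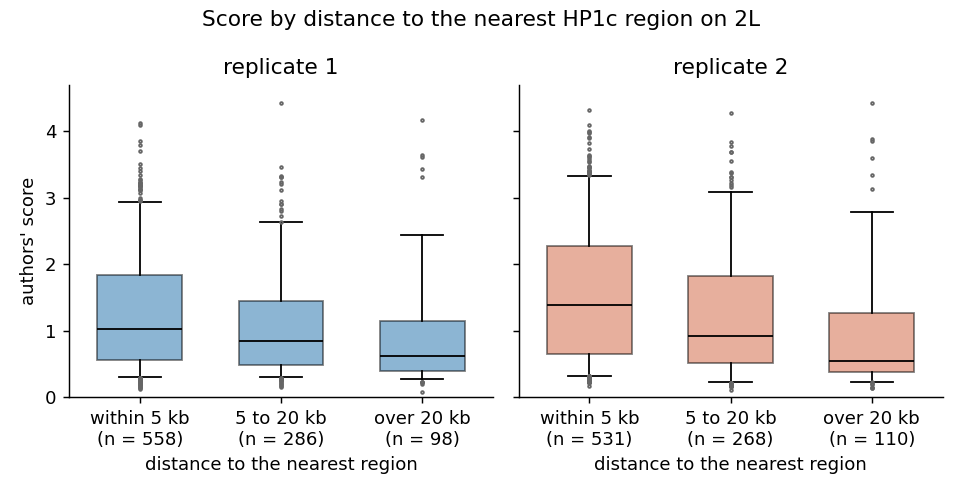
Authors' score (vertical axis) of 2L regions by the distance to the nearest region (horizontal axis), for replicate 1 (left) and replicate 2 (right). Boxes span the central 50% with the median as a line, whiskers the 5th to 95th percentiles, and points lie beyond; medians fall from 1.03 to 0.624 and from 1.39 to 0.541 with distance.

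On each other large arm, regions with a neighbour within 5 kb also stood above those with none within 20 kb. This difference was therefore not particular to 2L. As percentiles of the whole list, 2L regions with a neighbour within 5 kb stood at a median of 53.2 and 58.3 in replicates 1 and 2, and those with none within 20 kb had 30.9 and 22.0. On 3L the values were 53.6 and 51.4 against 33.5 and 23.9, and on 2R they were 51.0 and 49.4 against 41.0 and 37.3. On 3R they were 53.4 and 54.9 against 39.6 and 32.8, and on X 58.1 and 54.9 against 37.9 and 31.7.

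Region density on 2L was at the low end of the large arms, each taken without its proximal 2 Mb. Against 44.0 ± 1.11 regions per Mb on 2L (SD, n = 2), X held 61.5 ± 1.80, 2R 51.4 ± 2.18, 3L 48.5 ± 0.345 and 3R 44.4 ± 2.13. The 2L value was below that of X, 2R and 3L in both libraries, by more than the spread between them. Against 3R the order turned between the libraries, with 44.8 on 2L and 45.9 on 3R in replicate 1, and 43.3 and 42.8 in replicate 2. Over the 4 other arms together, the density of 2L was 0.861 times theirs in replicate 1 and 0.869 times in replicate 2. Without X the mean ratio was 0.923. Median widths on the other arms ran from 2256 to 2287 bp in replicate 1 and from 2228 to 2304 bp in replicate 2, against 2254 and 2273 bp on 2L. Their median scores ran from 0.896 to 1.06 and from 0.986 to 1.20, against 0.903 and 1.07 on 2L.

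**Figure D5:**
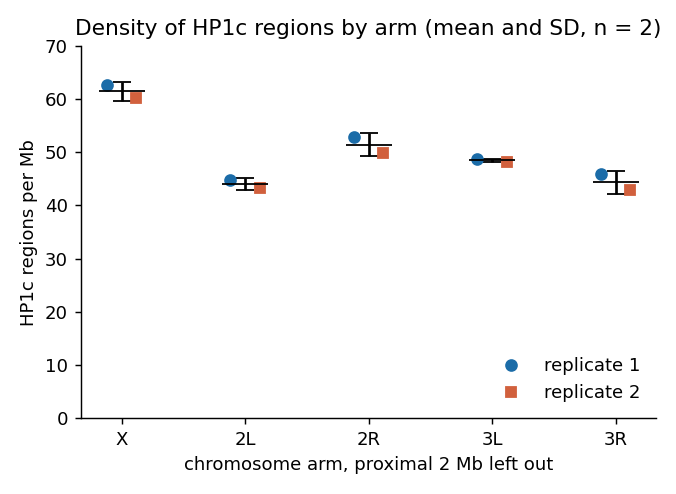
HP1c regions per Mb (vertical axis) on each large arm without its proximal 2 Mb (horizontal axis), for replicate 1 (circles) and replicate 2 (squares); bars give the mean and SD of the 2 libraries. Arm 2L, at 44.0 ± 1.11, lies with 3R (44.4 ± 2.13) below 3L, 2R and X.

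Sparse bins were found on 2L in 3 of 21 cases, counting a bin as sparse under a mean of 25 regions, a limit chosen after the values were seen. No bin of the other arms was as sparse, and their lowest means ran from 26.5 on 2R to 39 on X. This count depended on where the bins began. Shifted by 500 kb, 1 bin of 2L, 1 of 3L and 1 of 3R fell below 25, with lowest means of 17.5, 22 and 22.5.

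At the ends of the stretch, the first member lay from 17674 to 19971, with a score of 0.986 in replicate 1 and 1.48 in replicate 2. The last inside the limit lay from 20995707 to 20997667 and scored 0.465 and 0.409. The first region outside it, from 21050960 to 21053382, scored 0.955 and 1.06. The proximal 2 Mb left out held 32 regions per Mb in replicate 1 and 28.5 in replicate 2, fewer than the members' stretch, and they were wider, with medians of 2690 and 3025 bp.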

How the data were processed

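ChIP-seq was analysed from 3 lists of regions, 1 for each ChIP library and 1 combining both. Per the submitters' processing notes, the aligner was Bowtie 0.12.7. The file headers give FlyBase release 5 as the build. Each region carries a score deposited by the authors. Its scale, the region caller and its threshold, and how the lists were combined are not stated. Scores served to rank regions within a list and to set libraries side by side, not as fold enrichment. Inputs entered only through the authors' calls.

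Members, lists and rules were chosen with earlier results of these data known. Named regions were the 10 strongest found in both replicates and, for each other rule, 3: widest, strongest in 1 replicate or neither, most discordant, most split, longest gaps and runs, densest and sparsest bins. Regions at the position limit and all depleted regions were also named. Bins were counted by midpoint, full bins only. Percentiles are ranks within a whole list. Intervals are exact (Clopper-Pearson). No test was made, since the design holds 1 group of 2 ChIP libraries. The gene table at hand describes release 6, another build, so regions are named by position alone. Overlap and gap functions were tested on simulated data of 900 regions per list, where all known overlaps were recovered. The software was Python 3.11.15 with scipy 1.17.1, pandas 2.3.3, numpy 2.4.6 and matplotlib 3.10.9.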

Additional observations from a re-analysis of the deposited data

Results flagged for a closer look

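The comparisons above use enriched regions alone, but the combined list also names 4 depleted regions on 2L, of 15 in the whole list. Replicate 1 names none on the arm and replicate 2 names 1, from 5270466 to 5272303, with a score of -0.0114, which is not among the 4. The 4 scored between -0.0217 and -0.0128. One of them, from 13770176 to 13772038, overlapped an enriched region in both replicates, with scores of 0.235 in replicate 1 and 0.114 in replicate 2, so the combined list and its replicates gave it opposite signs. Another, from 14705481 to 14707343, lay inside the longest stretch without enriched regions, 15025 bp from the nearest. The others, from 2332213 to 2333910 and from 2724241 to 2725671, overlapped no enriched region of any list.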

How the results depend on the processing

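Of 57 alternatives over 12 results, 32 stayed within the spread between replicates, the exact interval or, for counts, 1.5 times the main value, and 25 moved. With 2 replicates, the value of either one always lies within 1 SD of their mean. Leaving out a replicate therefore could not count as a move where the SD was the limit. For the score correlation, the spread was that of the values obtained from each replicate's side, which does not measure variation between libraries. No alternative reversed the score correlation, the mean density ratio or the percentile difference between close and lone regions. Counts, shares, gaps and the bin ratio could not reverse, since they have no opposite direction. Against 3R alone, the mean hides a change of order between libraries. Replicate 1 held 44.8 regions per Mb on 2L and 45.9 on 3R, and replicate 2 held 43.3 and 42.8. The mean number of 2L regions, 925.5 per replicate, was 444 in the upper 50% by score and 223.5 in the top 25%, which follows from their construction. With reciprocal overlap of 50%, the shared regions were 83.4% of replicate 1 and 86.5% of replicate 2. The score correlation was 0.909 as Pearson's r, 0.903 in one-to-one pairs, 0.901 with reciprocal overlap and 0.832 in the upper 50%. The density of 2L against the other arms, 0.865, was 0.871 by base pairs, 0.832 in the upper 50%, 0.923 without X and 0.994 against 3R alone. The median gap was 15246 bp in the upper 50%, 8717 bp after merging regions within 500 bp and 6990 bp in the combined list. The share with a neighbour was 34.0% within 2 kb, 77.3% within 10 kb, 54.8% after merging and 63.1% in the combined list. The ratio of the densest to the sparsest bin, 3.39, was 8.30 in bins of 500 kb, 2.64 in bins of 2 Mb, 4.59 in the upper 50% and 2.48 in the combined list. Sparse bins numbered 1 after a shift of 500 kb. The percentile difference between close and lone regions, 29.3 points, was 7.63 points at widths of 2 to 3 kb. The causes of these moves were not tested. Leaving out either replicate gave 909 to 942 regions, a density ratio of 0.861 to 0.869, a median gap of 7727 to 8050 bp, 58.4% to 59.2% with a neighbour, a bin ratio of 3.26 to 3.53, 3 sparse bins each time and 22.3 to 36.3 percentile points. In all, 16 alternatives were chosen after seeing the data: those of the sparse bins, of lone regions, of the combined list and of 3R. No paired analysis was possible because inputs entered only through the authors' calls. The lists give no depth, so its part in these values was not tested.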
